A study of Mus musculus with 14 samples.

Results

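The PARP enzymes and the ubiquitin ligase gene Dtx3l were followed as 9 genes in a table of 39721 entries: Parp9, Dtx3l, Parp14, Parp12, Parp11 and Parp10, which are linked to interferon, Parp1 and Parp2, which act in DNA repair, and Parp8. Members were found by gene name. An entry carrying the name alone was taken first, then an entry naming several genes, and of several such entries the one with the highest mean. All 9 members passed the filter of at least 1 FPKM in at least 2 libraries. Transcripts came from macrophages grown from bone marrow of male C57Bl6/J mice aged 6 to 12 weeks, in medium holding 30% L929-conditioned medium as a source of CSF-1, a growth factor that all groups shared. Cells received a first stimulus for 24 h, either 100 ng/mL Poly I:C, a double-stranded RNA mimic sensed by TLR3, or PBS, and were washed. They then received LPS, a bacterial ligand of TLR4 whose dose for this step was not stated, or PBS, for 6 h or 2 h. The 8 groups were, at each time, Poly I:C then LPS, PBS then LPS and Poly I:C then PBS with 2 libraries each, and PBS then PBS with 1 library. No label says that replicate libraries came from separate animals or cultures, so p-values measure only the spread between these libraries, which may be technical.

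PARP proteins use NAD to attach ADP-ribose to proteins or nucleic acids. Parp1 and Parp2 sense broken DNA and build poly(ADP-ribose) chains that recruit repair factors, whereas most other members add single ADP-ribose units or, like Parp9 on its own, have little activity. Parp9 and the E3 ubiquitin ligase Dtx3l form a complex known from human and mouse cells, and both belong to the genes that interferon switches on. Macrophages make type I interferon after both TLR3 and TLR4 are engaged.

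Dtx3l and Parp9 lie head to head. In the GENCODE M21 annotation of GRCm38, Dtx3l (chromosome 16, 35926511 to 35939151, minus strand) and Parp9 (chromosome 16, 35938470 to 35972605, plus strand) overlap by 682 bases, and 4 of 7 annotated Parp9 transcripts start within 150 bases of the Dtx3l start. Parp14 (chromosome 16, 35832874 to 35871544, minus strand) starts 54966 bases beyond the far end of Dtx3l. The libraries were stranded, but whether counting used strand is not given in the sources used here, so reads in the Parp9 and Dtx3l overlap cannot be told apart. The other members lie on other chromosomes: Parp12 (chromosome 6, 39086410 to 39118349) and Parp11 (chromosome 6, 127446840 to 127494261) far apart on one, Parp8 on chromosome 13 (116854820 to 117025537), Parp1 on chromosome 1 (180568924 to 180601254) and Parp2 on chromosome 14 (50807841 to 50821301). Parp10 (chromosome 15, 76231174 to 76243441) overlaps Plec, a cytoskeletal linker gene, by 1401 bases, and the table gives both as 1 entry, so a value for Parp10 is always the value of Parp10 and Plec together. Parp1 shares its entry with mmu-mir-6904, which lies within it. A second entry named Parp14, at no more than 4.55 FPKM, was not used.

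**Figure D1:**
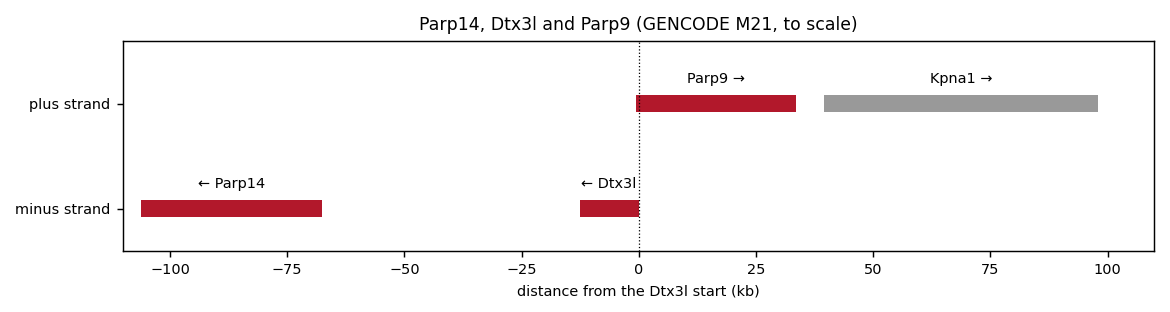
Gene extents of Parp14, Dtx3l and Parp9 (red) and of Kpna1 (grey), which the table places in 1 assembled locus with Dtx3l and Parp9, by strand, against distance in kb from the Dtx3l start; other genes of the region are not drawn. Dtx3l and Parp9 point away from each other and overlap by 682 bases at their starts, and Parp14 lies 54966 bases beyond the far end of Dtx3l.

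Promoter windows from RefSeq on GRCm38.p6, 250 bases before to 50 after a start, were matched for 6 members. They are shown because most of these genes moved together. The Parp2 window and the second Parp11 window are not printed, and none was available for Parp9, Parp10 and Parp14. The bases printed end 179 bases before the start for Dtx3l and 6 bases before it for Parp8. Each line gives the bases before the start that no annotated exon covers, 5′ to 3′ on the gene's strand, with capitals marking a match to the interferon-stimulated response element (GAAA, any 2 bases, GAAA) or to the gamma-activated site TTCNNNGAA, searched on both strands.
Parp11, chr6:127446590-127446839, plus strand: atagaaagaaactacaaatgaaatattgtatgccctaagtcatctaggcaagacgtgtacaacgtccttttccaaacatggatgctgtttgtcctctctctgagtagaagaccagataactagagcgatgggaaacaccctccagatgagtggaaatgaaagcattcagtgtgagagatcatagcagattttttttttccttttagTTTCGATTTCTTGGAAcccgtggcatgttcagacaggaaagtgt
Dtx3l, chr16:35939207-35939277, minus strand: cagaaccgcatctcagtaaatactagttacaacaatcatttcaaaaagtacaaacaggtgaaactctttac
Parp12, chr6:39118350-39118472, minus strand: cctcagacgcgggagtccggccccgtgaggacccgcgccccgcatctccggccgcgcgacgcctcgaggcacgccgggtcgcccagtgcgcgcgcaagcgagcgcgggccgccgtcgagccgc
Parp8, chr13:117025538-117025781, minus strand: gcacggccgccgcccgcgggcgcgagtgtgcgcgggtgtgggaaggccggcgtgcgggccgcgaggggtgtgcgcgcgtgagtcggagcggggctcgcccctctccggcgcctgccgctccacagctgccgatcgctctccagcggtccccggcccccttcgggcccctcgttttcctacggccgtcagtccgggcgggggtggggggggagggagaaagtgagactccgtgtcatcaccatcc
Parp1, chr1:180568641-180568890, plus strand: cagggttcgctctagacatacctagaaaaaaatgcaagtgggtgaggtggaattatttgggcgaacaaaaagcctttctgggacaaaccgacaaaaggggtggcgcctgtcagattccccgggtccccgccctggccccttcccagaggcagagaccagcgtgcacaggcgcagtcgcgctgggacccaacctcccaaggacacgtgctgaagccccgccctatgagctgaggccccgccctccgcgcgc

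The first of the Parp11 windows held both motifs. The interferon-stimulated response element lay on the minus strand at positions -44 to -35 from the start, and the gamma-activated site, which reads the same on both strands by its letters, overlapped it at -37 to -29. Of 32851 promoter windows of 300 bases in the table, 3.44% held the first motif and 8.30% the second. None of the other 6 windows of members held either set of letters, which says nothing about binding outside these windows. GC content differed widely, at 73.7% in the Parp12 window, 72.3% for Parp8, 62.0% for Parp1, 60.0% for Parp2, 54.3% for Dtx3l and 42.0% and 59.0% for the Parp11 windows, against a median of 52.7% over all windows.

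Values are FPKM as deposited, fragments scaled by transcript length and between libraries. Levels can thus be compared between genes, though the Parp10 and Plec entry is a joint value. Sums over named entries ran from 405346 FPKM (PBS then PBS, 6 h) to 793596 FPKM (Poly I:C then LPS, 2 h, replicate 2). The median over entries of a library's value relative to the geometric mean of all libraries was 0.992 and 1.04 there. Log2 changes were taken between group means of log2(FPKM + 1), so those of weakly expressed genes are too small; each is followed by ± its standard error, and a gene is called at a limma Benjamini-Hochberg adjusted p under 0.05 over 11977 tested entries. Depth in fragments is unknown. Replicates correlated across entries, which are not independent, at r = 0.974 to 0.988, lowest in the PBS-then-LPS pair at 2 h. Macrophage markers, 7 of 7 of them above 1 FPKM in every group, summed to 5054 to 5149 FPKM in Poly I:C-then-LPS and 14182 to 15185 FPKM in PBS-then-LPS libraries at 6 h, and to 7724 to 8112 FPKM and 16016 to 20596 FPKM at 2 h. Lyz2, with the highest median of the 7, spanned 2408 to 16240 FPKM and so weighs most in these sums. With Poly I:C before LPS, 2 of the 7 were called higher and 5 lower at 2 h, where 32.6% and 28.5% of entries were. At 6 h, 0 were called higher and 5 lower, where 23.7% and 25.9% of entries were. Neutrophil and progenitor markers summed to 5.81 to 7.01 FPKM in Poly I:C-then-LPS and 1.16 to 1.70 FPKM in PBS-then-LPS libraries at 6 h, and to 0.323 to 0.478 FPKM and 2.11 to 2.15 FPKM at 2 h, with Elane at 0 in all libraries. In both LPS groups at 6 h, Ly6g, Mpo and Elane were at 0, so S100a8 made up the whole sum. T and NK cell markers were at 0 in all libraries and B cell markers reached 0.788 FPKM. Stromal markers summed to 22.8 to 50.5 FPKM in Poly I:C-then-LPS and 7.30 to 7.38 FPKM in PBS-then-LPS libraries at 2 h. At 6 h these sums were 23.5 to 26.8 FPKM and 12.2 to 30.9 FPKM, which overlapped. The 3 dendritic cell markers summed to 9.79 to 10.2 FPKM and 2.77 to 3.41 FPKM at 2 h, and to 4.07 to 4.21 FPKM and 3.33 to 3.93 FPKM at 6 h. Flt3 was under 1 FPKM in all libraries. Col1a1 had the highest median of the stromal markers and Xcr1 of the dendritic cell markers. The part of any of these cell types in the results was not tested. In bulk RNA, fewer cells of a type and less RNA per cell cannot be told apart.

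**Figure D2:**
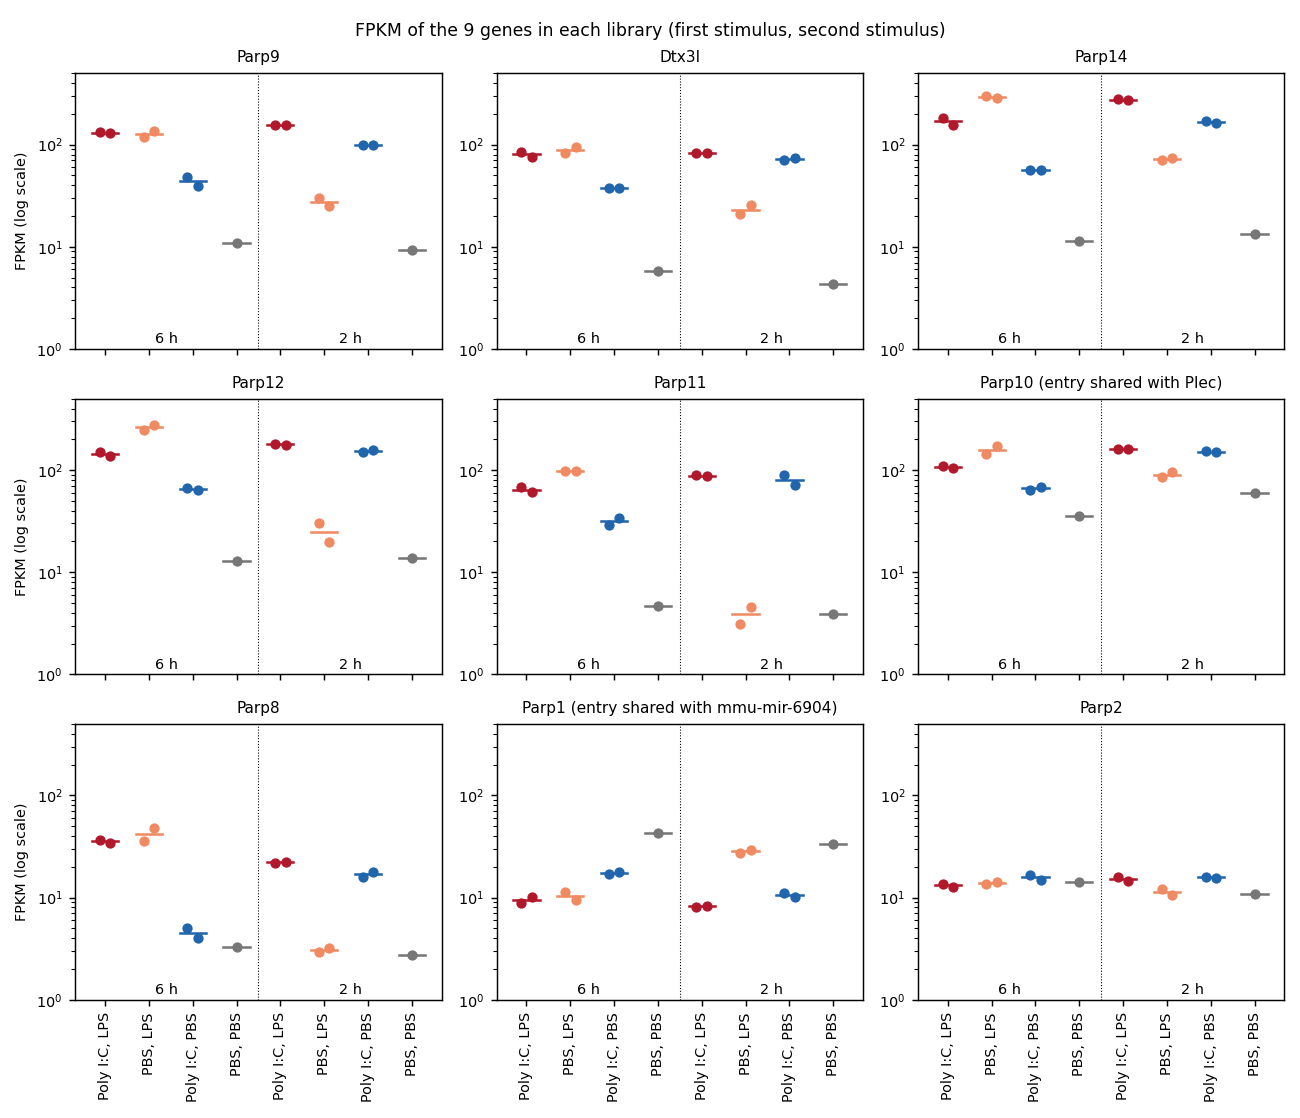
FPKM on a log scale of each of the 9 genes in every library, at 6 h (left of the dotted line) and 2 h (right), by first and second stimulus; points are libraries and bars group means. The interferon-linked genes and Parp8 are low in PBS-then-PBS libraries (2.75 to 59.4 FPKM) and high in PBS-then-LPS libraries at 6 h, the Parp1 entry runs the other way, and Parp2 stays between 10.6 and 16.7 FPKM.

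Parp9 and Dtx3l rose with Poly I:C, with LPS, and with both. In the 2 h libraries, Parp9 stood at 156 and 156 FPKM in Poly I:C-then-LPS cells, against 30.4 and 25.0 FPKM in PBS-then-LPS cells, and at 98.1 and 98.9 FPKM after Poly I:C then PBS, against 9.40 FPKM after PBS then PBS. Its partner Dtx3l stood at 83.7 and 83.6 FPKM after Poly I:C then LPS, against 20.8 and 25.5 FPKM after PBS then LPS, and at 70.9 and 73.9 FPKM after Poly I:C then PBS, against 4.30 FPKM after PBS then PBS. For both genes every Poly I:C library lay above every PBS library given the same second stimulus at this time. The 6 h libraries gave another picture after LPS. Parp9 was at 132 and 129 FPKM in Poly I:C-then-LPS cells, against 119 and 135 FPKM in PBS-then-LPS cells, and Dtx3l at 84.6 and 76.3 FPKM, against 83.5 and 95.0 FPKM, so that the groups overlapped. Without LPS at 6 h, Parp9 was at 48.4 and 39.4 FPKM after Poly I:C, against 10.8 FPKM after PBS, and Dtx3l at 37.3 and 37.6 FPKM, against 5.77 FPKM. Parp9 over Dtx3l in FPKM was 0.981 to 2.19 across the 14 libraries, and the 2 profiles over 8 group means, each centred on its mean, differed by a root mean square of 0.27 log2, the smallest such difference between any 2 members measured.

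Parp14, a mono-ADP-ribosyltransferase with macrodomains known in mouse cells as a cofactor of the IL-4 factor STAT6, had the highest FPKM of the members in every LPS group except PBS then LPS at 2 h, where the Parp10 and Plec entry was higher. In 2 h libraries it stood at 279 and 272 FPKM in Poly I:C-then-LPS cells, against 71.4 and 73.4 FPKM in PBS-then-LPS cells, and at 169 and 163 FPKM in Poly I:C-then-PBS cells, against 13.5 FPKM in PBS-then-PBS cells. At 6 h the order under LPS was turned round, with 182 and 156 FPKM after Poly I:C then LPS, against 302 and 284 FPKM after PBS then LPS. Poly I:C without LPS left 55.9 and 56.7 FPKM at 6 h, against 11.4 FPKM after PBS then PBS. Parp12, a zinc-finger mono-ADP-ribosyltransferase with antiviral activity, was likewise higher with Poly I:C before LPS at 2 h and lower at 6 h. It stood at 149.7 and 137 FPKM after Poly I:C then LPS at 6 h, against 246 and 278 FPKM after PBS then LPS, and at 182 and 176 FPKM at 2 h, against 30.1 and 19.9 FPKM. All 4 of these PBS-then-LPS libraries thus lay apart from the Poly I:C-then-LPS libraries of their time, above them at 6 h and below them at 2 h. Without LPS, Parp12 was at 66.0 and 63.7 FPKM after Poly I:C at 6 h, against 12.8 FPKM after PBS, and at 150.3 and 158 FPKM at 2 h, against 13.7 FPKM.

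Parp11, another mono-ADP-ribosyltransferase, rose with Poly I:C before PBS at both times and with LPS after PBS at 6 h. In 2 h libraries it stood at 89.1 and 86.7 FPKM in Poly I:C-then-LPS cells, against 3.12 and 4.59 FPKM in PBS-then-LPS cells. PBS-then-LPS cells at 2 h thus lay around the PBS-then-PBS library, at 3.87 FPKM, while Poly I:C-then-PBS cells held 89.1 and 70.8 FPKM. At 6 h it was at 67.6 and 61.0 FPKM after Poly I:C then LPS, against 98.9 and 98.7 FPKM after PBS then LPS, and at 28.8 and 33.9 FPKM after Poly I:C then PBS, against 4.72 FPKM after PBS then PBS. The joint entry of Parp10, a mono-ADP-ribosyltransferase, and Plec had a narrower range, with group means between 35.3 and 161 FPKM. It stood at 161 and 162 FPKM after Poly I:C then LPS at 2 h, against 85.0 and 95.0 FPKM after PBS then LPS, and at 109.7 and 104 FPKM at 6 h, against 142 and 173 FPKM. Without LPS the entry was at 63.5 and 68.9 FPKM after Poly I:C at 6 h, against 35.3 FPKM after PBS. At 2 h these levels were 152 and 150 FPKM, against 59.4 FPKM. How much of this entry is Parp10 was not tested.

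Parp8, a little-studied member that adds single ADP-ribose units, was high after LPS at 6 h, and after Poly I:C alone it was high at 2 h and low at 6 h. In 2 h libraries it was at 21.8 and 22.4 FPKM after Poly I:C then LPS, against 2.92 and 3.23 FPKM after PBS then LPS, and at 16.0 and 17.9 FPKM after Poly I:C then PBS, against 2.75 FPKM after PBS then PBS. At 6 h it was at 36.9 and 34.0 FPKM after Poly I:C then LPS, overlapping 36.2 and 48.5 FPKM after PBS then LPS, and at 5.02 and 4.04 FPKM after Poly I:C then PBS, against 3.27 FPKM after PBS then PBS. Its lowest and highest group means lay 15.4-fold apart, a spread like that of Parp9 (16.6-fold), Parp12 (20.4-fold), Dtx3l (20.8-fold), Parp11 (25.6-fold) and Parp14 (25.8-fold).

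The DNA repair members behaved differently from these and from each other. The Parp1 entry was at 8.18 and 8.35 FPKM after Poly I:C then LPS at 2 h, against 27.6 and 29.6 FPKM after PBS then LPS, and at 11.1 and 10.2 FPKM after Poly I:C then PBS, against 33.4 FPKM after PBS then PBS. At 6 h it was at 8.91 and 10.1 FPKM after Poly I:C then LPS, overlapping 11.4 and 9.42 FPKM after PBS then LPS, and at 16.9 and 17.9 FPKM after Poly I:C then PBS, against 43.0 FPKM after PBS then PBS. Every stimulated library thus lay below both PBS-then-PBS libraries. Parp2 stood at 15.7 and 14.5 FPKM after Poly I:C then LPS at 2 h, against 12.1 and 10.6 FPKM after PBS then LPS, and at 13.7 and 12.8 FPKM at 6 h, against 13.7 and 14.2 FPKM. Its highest and lowest group means were 1.46-fold apart, and each of the 7 steps between neighbouring groups in its order of levels was no wider than the replicate range. The ratio of Parp1 over Parp2 in FPKM was 0.520 and 0.575 after Poly I:C then LPS at 2 h, against 2.28 and 2.80 after PBS then LPS.

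**Figure D3:**
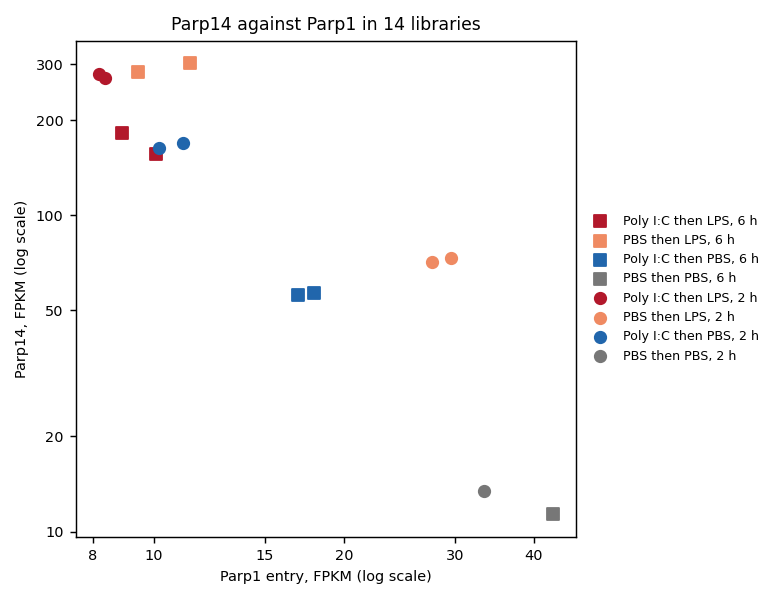
Parp14 against the Parp1 entry, both in FPKM on log scales, in each of the 14 libraries, with squares for 6 h and circles for 2 h. The 2 PBS-then-PBS libraries sit at the lower right (Parp14 at 11.4 and 13.5 FPKM), and PBS-then-LPS libraries at 6 h and Poly I:C-then-LPS libraries at 2 h at the upper left.

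Setting an interferon-linked against a repair member, Parp14 over the Parp1 entry was 34.1 and 32.6 after Poly I:C then LPS at 2 h, against 2.58 and 2.48 after PBS then LPS. At 6 h the same ratio was 20.5 and 15.5 after Poly I:C then LPS, against 26.5 and 30.1 after PBS then LPS. Poly I:C then PBS gave 3.30 and 3.16 at 6 h, against 0.265 after PBS then PBS, and 15.2 and 15.9 at 2 h, against 0.404. In every stimulated library Parp14 thus exceeded Parp1, and in both PBS-then-PBS libraries Parp1 exceeded Parp14.

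The first question was how Poly I:C given beforehand altered the level reached after LPS. At 2 h, 8 of 9 members were higher and 1, the Parp1 entry, was lower, where 32.6% of all tested entries were called higher and 28.5% lower. The median change of the 9 was 1.91, against 0.05 over all entries. Parp11 rose by 4.21 ± 0.16 (limma adjusted p = 2.19e-08), Parp12 by 2.82 ± 0.16, Parp8 by 2.51 ± 0.16, Parp9 by 2.46 ± 0.13, Parp14 by 1.91 ± 0.10, Dtx3l by 1.82 ± 0.12 and the Parp10 entry by 0.84 ± 0.12. The Parp1 entry fell by 1.67 on the log2 scale (SE 0.12, adjusted p = 1.69e-06). Parp2 changed by 0.39 ± 0.12 (adjusted p = 0.0157), which no longer passed when PBS-then-LPS replicate 2 was left out (0.30, adjusted p = 0.0554) or Poly I:C-then-LPS replicate 1 (0.34, adjusted p = 0.0962). At 6 h, 4 of 9 members were lower, where 25.9% of all entries were called lower and 23.7% higher, and the other 5 did not pass. Those lower were Parp12 at -0.86 ± 0.16 (adjusted p = 0.0016), Parp14 at -0.79 ± 0.10 (adjusted p = 1.47e-04), Parp11 at -0.61 ± 0.16 and the Parp10 entry at -0.55 ± 0.12. Parp11 lost its call without Poly I:C-then-LPS replicate 2 (-0.54, adjusted p = 0.0713). Values that did not pass were 0.04 ± 0.13 for Parp9, -0.07 ± 0.12 for Parp2, -0.12 ± 0.12 for the Parp1 entry, -0.15 ± 0.12 for Dtx3l and -0.24 ± 0.16 for Parp8. The change in the Poly I:C effect between 6 h and 2 h was itself tested and called for all 9 members, 8 downward and Parp1 upward, where 25.3% of entries were called downward and 19.1% upward. It was -4.82 ± 0.23 for Parp11, -3.68 ± 0.23 for Parp12, -2.74 ± 0.22 for Parp8, -2.70 ± 0.15 for Parp14, -2.42 ± 0.19 for Parp9 and 1.56 ± 0.18 for the Parp1 entry. For Parp2 it was -0.46 ± 0.17 (adjusted p = 0.0473), which was lost in 11 of 14 other settings, among them the replicate block (adjusted p = 0.0539).

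**Figure D4:**
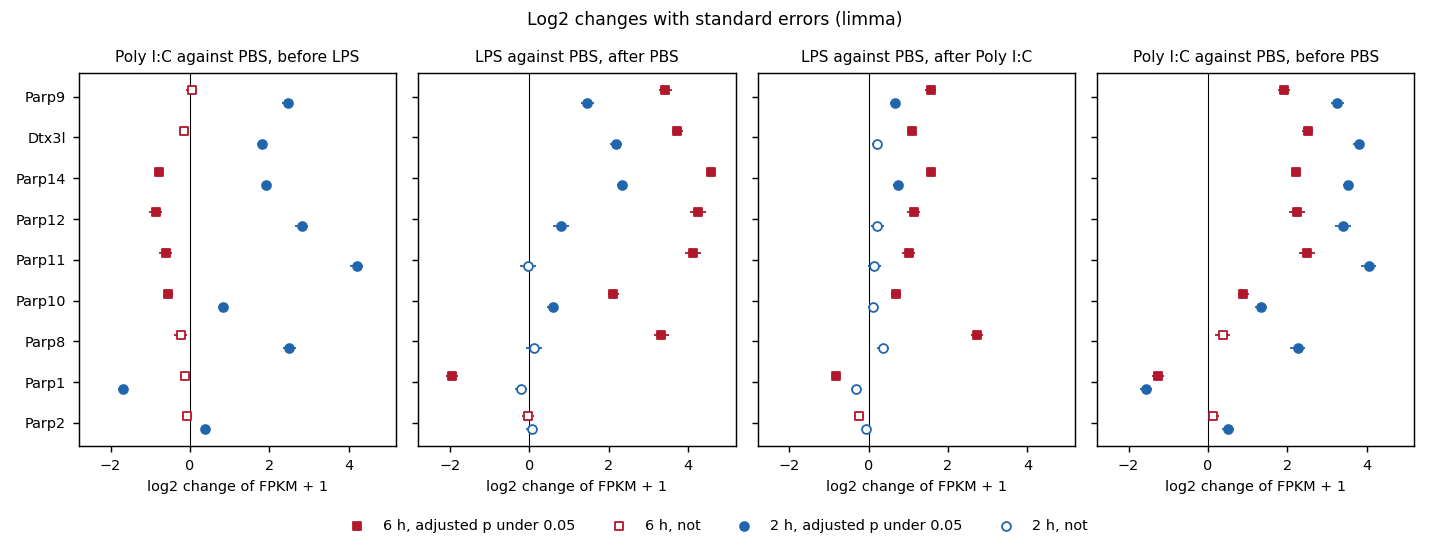
Log2 change of FPKM + 1 with its standard error for each gene in 4 comparisons, at 6 h (red squares) and 2 h (blue circles); filled symbols passed a limma adjusted p under 0.05. Before LPS, Poly I:C moves the interferon-linked genes by 0.84 to 4.21 at 2 h and by -0.86 to 0.04 at 6 h, and the Parp1 entry lies at or below 0 in all 4 panels.

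LPS alone acted on these genes at different speeds. At 2 h, 5 of 9 members were higher with LPS than with PBS after a PBS first stimulus, where 9.47% of entries were called higher and 6.39% lower, and the other 4 did not pass. Parp14 rose by 2.34 ± 0.13 (limma adjusted p = 2.1e-06), Dtx3l by 2.18 ± 0.15, Parp9 by 1.46 ± 0.16, Parp12 by 0.79 ± 0.20 (adjusted p = 0.0238) and the Parp10 entry by 0.59 ± 0.14 (adjusted p = 0.0193). The last 2 calls were lost with the 2 h libraries alone (adjusted p = 0.11 and 0.0591), and that of Parp12 also without the filter on low values (adjusted p = 0.0558). Parp11 stood at -0.02 ± 0.20, Parp8 at 0.12 ± 0.19, Parp2 at 0.06 ± 0.14 and the Parp1 entry at -0.22 ± 0.15. By 6 h, 7 of 9 were higher and the Parp1 entry lower, where 22.9% and 20.6% of entries were called. Parp14 rose by 4.57 ± 0.13, Parp12 by 4.24 ± 0.20, Parp11 by 4.13 ± 0.20, Dtx3l by 3.73 ± 0.15, Parp9 by 3.43 ± 0.16, Parp8 by 3.33 ± 0.19 and the Parp10 entry by 2.12 ± 0.14, while the Parp1 entry fell by 1.95 (SE 0.15, adjusted p = 4e-06). Set directly against each other, PBS-then-LPS libraries at 6 h exceeded those at 2 h by 4.38 ± 0.16 for Parp11, 3.40 ± 0.16 for Parp8, 3.37 ± 0.16 for Parp12, 2.16 ± 0.13 for Parp9, 2.00 ± 0.10 for Parp14, 1.91 ± 0.12 for Dtx3l and 0.80 ± 0.12 for the Parp10 entry, 7 of 9 members where 23.4% of entries were called higher and 26% lower. The Parp1 entry was lower by -1.38 ± 0.12, and Parp2 did not pass (0.28 ± 0.12, adjusted p = 0.0736). The comparisons with PBS then PBS rest on 1 control library at each time, which is assumed to vary like the other groups. For the Parp10 entry this library stood at 35.3 FPKM at 6 h and 59.4 FPKM at 2 h. The LPS changes of this entry at 6 h and 2 h thus start from different levels. Comparisons of one time share libraries.

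After Poly I:C alone, the 6 interferon-linked members were raised at both times and Parp8 at 2 h. At 2 h, 8 of 9 members were higher in Poly I:C-then-PBS than in PBS-then-PBS cells and the Parp1 entry was lower, where 24.9% and 22.4% of entries were called. Parp11 rose by 4.04 ± 0.20 (limma adjusted p = 1.81e-07), Dtx3l by 3.79 ± 0.15, Parp14 by 3.53 ± 0.13, Parp12 by 3.40 ± 0.20, Parp9 by 3.26 ± 0.16, Parp8 by 2.26 ± 0.19 and the Parp10 entry by 1.33 ± 0.14. The Parp1 entry fell by 1.56 (SE 0.15), and Parp2 was at 0.50 ± 0.14 (adjusted p = 0.0164), a call lost with the PBS-then-PBS libraries of both times joined as controls (0.31, adjusted p = 0.0865), with the 2 h libraries alone (adjusted p = 0.055) and without Poly I:C-then-PBS replicate 1 (0.48, adjusted p = 0.0633). At 6 h, 6 of 9 were higher, all interferon-linked, by 0.89 to 2.51, and the Parp1 entry was lower (-1.26 ± 0.15), where 18.4% of entries were called higher and 16.1% lower. Parp8 did not pass there (0.37 ± 0.19, adjusted p = 0.173), except with both PBS-then-PBS libraries as 1 group (0.46, adjusted p = 0.0401), and the Parp10 entry lost its call in that setting (0.52, adjusted p = 0.052). Between the times, Poly I:C-then-PBS libraries were lower at 6 h than at 2 h in 7 of 9 members, where 18% of entries were called lower and 12.3% higher. The changes were -1.71 ± 0.16 for Parp8, -1.54 ± 0.10 for Parp14, -1.32 ± 0.16 for Parp11, -1.24 ± 0.16 for Parp12, -1.18 ± 0.12 for the Parp10 entry, -1.16 ± 0.13 for Parp9 and -0.93 ± 0.12 for Dtx3l. The Parp1 entry rose by 0.66 ± 0.12 (adjusted p = 0.00348).

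Adding LPS to cells already exposed to Poly I:C moved few members at 2 h, a count near the share of all entries, and most at 6 h. At 2 h, 2 of 9 were higher after Poly I:C then LPS than after Poly I:C then PBS, where 14% of entries were called higher and 8.72% lower: Parp14 at 0.73 ± 0.10 (limma adjusted p = 6.58e-04) and Parp9 at 0.66 ± 0.13 (adjusted p = 0.00494). At 6 h, 7 of 9 were higher and the Parp1 entry was lower, where 21.7% and 22.2% of entries were called. Parp8 rose most, by 2.73 ± 0.16 (adjusted p = 4.75e-07), followed by Parp14 at 1.57 ± 0.10, Parp9 at 1.56 ± 0.13, Parp12 at 1.13 ± 0.16, Dtx3l at 1.08 ± 0.12, Parp11 at 1.02 ± 0.16 and the Parp10 entry at 0.69 ± 0.12. The Parp1 entry changed by -0.81 ± 0.12. Among Poly I:C-then-LPS libraries, those at 6 h were higher than those at 2 h for Parp8 (0.66 ± 0.16, limma adjusted p = 0.00794). They were lower for Parp14 (-0.70 ± 0.10) and the Parp10 entry (-0.59 ± 0.12). Of all entries, 14.7% were called higher and 25.3% lower, so these counts of members were near the shares of all entries. Parp8 lost that call when replicate 1 of the 6 h libraries was left out (0.60, adjusted p = 0.0585).

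Whether LPS did less after Poly I:C than after PBS was tested as an interaction on the log2 scale, which compares fold changes. At 6 h all 6 interferon-linked members had a smaller LPS change after Poly I:C, where 16.7% of entries were called downward and 12.7% upward: -3.11 ± 0.26 for Parp12 and for Parp11, -3.00 ± 0.16 for Parp14, -2.65 ± 0.19 for Dtx3l, -1.87 ± 0.21 for Parp9 and -1.43 ± 0.19 for the Parp10 entry (limma adjusted p of at most 3.2e-04). The Parp1 entry moved the other way (1.14 ± 0.20, adjusted p = 0.00184), its fall with LPS being smaller after Poly I:C. Parp8 did not pass (-0.60 ± 0.25, adjusted p = 0.099), but did so without PBS-then-LPS replicate 1 (-0.81, adjusted p = 0.0344) and with both PBS-then-PBS libraries as 1 group (-0.69, adjusted p = 0.0384). At 2 h, 2 of 9 passed, Dtx3l at -1.97 ± 0.19 (adjusted p = 3.64e-04) and Parp14 at -1.61 ± 0.16 (adjusted p = 4.3e-04), where 1.77% of entries were called downward and 2.52% upward. For Parp14 the direction depends on the scale. Its group mean went with LPS from 166 to 275 FPKM after Poly I:C and from 13.5 to 72.4 FPKM after PBS, a larger step after Poly I:C. For Dtx3l the step was smaller after Poly I:C in FPKM too, from 72.4 to 83.7 FPKM, against 4.30 to 23.1 FPKM. Without PBS-then-LPS replicate 2 the count at 2 h was 4, with Parp9 (-0.93, adjusted p = 0.0144) and Parp12 (-0.87, adjusted p = 0.0084).

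By order of group means, the PBS-then-PBS libraries were lowest for Parp9, Dtx3l, Parp14, Parp12 and the Parp10 entry, and the top groups were PBS then LPS at 6 h or Poly I:C then LPS at 2 h. For Dtx3l the 3 highest groups, Poly I:C then LPS at both times and PBS then LPS at 6 h, did not differ beyond the spread of replicates, with overlapping libraries at means of 80.5, 83.7 and 89.3 FPKM. Likewise PBS then LPS at 6 h (mean 293 FPKM) and Poly I:C then LPS at 2 h (mean 275 FPKM) were within the replicate range of each other for Parp14. For the Parp1 entry the 4 lowest groups, Poly I:C then LPS at 2 h and 6 h, PBS then LPS at 6 h and Poly I:C then PBS at 2 h, spanned means of 8.27 to 10.7 FPKM with each step within the replicate range.

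Other genes of ADP-ribose biology were mixed. Of 7 tested genes of the wider ADP-ribosyltransferase family, 6 were higher with Poly I:C before LPS at 2 h, with a list median of 0.81, and 2 lower at 6 h, with a median of -0.27. Over all tested entries, 32.6% were called higher and 28.5% lower in this comparison at 2 h, and 23.7% higher and 25.9% lower at 6 h, so the 6 h count is near the share of all entries. Parp3, which acts in repair of double-strand breaks, changed by 2.01 ± 0.16 at 2 h and -1.44 ± 0.16 at 6 h. Its levels were 94.2 ± 3.83 FPKM after Poly I:C then LPS at 2 h and 22.8 ± 2.65 FPKM after PBS then LPS (SD, n = 2 each). Zc3hav1, the antiviral zinc-finger protein also called PARP13, rose by 1.56 ± 0.11 at 2 h and stood at -0.19 ± 0.11 at 6 h, which did not pass. The tankyrase gene Tnks rose by 1.23 ± 0.24 and Parp4, a component of vault particles, by 0.81 ± 0.17 at 2 h. Among 3 tested deltex relatives of Dtx3l, Dtx4 rose by 0.80 ± 0.13 at 2 h, while Dtx3 at -0.91 ± 0.19 and Dtx2 at -0.77 ± 0.18 were lower.

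Enzymes that remove ADP-ribose gave 2 higher and 3 lower of 7 tested at 2 h, with a median of 0.26, near the 32.6% and 28.5% of all entries. Macrod1, which removes single ADP-ribose units, fell by 3.22 at 2 h (SE 0.25) and by 2.46 at 6 h, to 0.237 ± 0.335 FPKM after Poly I:C then LPS at 2 h, against 10.6 ± 3.59 FPKM after PBS then LPS (SD, n = 2 each). Adprh, an ADP-ribosylarginine hydrolase, rose by 0.95 ± 0.14 at 2 h and 1.01 ± 0.14 at 6 h. Enpp1, a nucleotide pyrophosphatase, changed by -1.29 ± 0.18 and Nudt16, a nucleotide hydrolase, by 0.97 ± 0.17 at 2 h. Genes supplying or using NAD, the substrate of every active PARP, gave 7 higher and 1 lower of 10 tested at 2 h, with a median of 1.00, where 32.6% and 28.5% of all entries were called. Nampt, the rate-limiting enzyme of NAD salvage, rose by 2.29 ± 0.12 at 2 h and changed by -0.51 ± 0.12 at 6 h. Bst1 and Cd38, ectoenzymes that consume NAD, rose by 3.11 ± 0.16 and 1.30 ± 0.14 at 2 h, and the NAD-dependent deacetylase gene Sirt1 by 1.50 ± 0.27. At 6 h Bst1 was at -0.58 ± 0.16, which no longer passed when PBS-then-LPS replicate 2 was left out (-0.46, adjusted p = 0.102) or Poly I:C-then-LPS replicate 2 (-0.51, adjusted p = 0.0878). Cd38 was at 0.60 ± 0.14, a call lost with a pseudocount of 0.1 (adjusted p = 0.124).

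Genes of single-strand break repair, the pathway Parp1 and Parp2 serve, gave 2 higher and 3 lower of 8 tested at 2 h, with a median of -0.22, near the 32.6% and 28.5% of all entries. The nuclease gene Apex1 changed by -2.06 ± 0.21 and Tdp1, which clears blocked ends, by -0.89 ± 0.25, while Aptx, which also repairs blocked ends, rose by 1.12 ± 0.15 and the polymerase gene Polb by 0.90 ± 0.14. The call of Tdp1 was lost without PBS-then-LPS replicate 2 (-0.80, adjusted p = 0.0516) and without Poly I:C-then-LPS replicate 2 (-0.58, adjusted p = 0.0992). At 6 h, where 23.7% of all entries were called higher and 25.9% lower, 3 of the 8 repair genes were higher (median 0.08). Among them were Apex1 at 0.74 ± 0.21, which no longer passed without PBS-then-LPS replicate 1 (0.47, adjusted p = 0.125) or either Poly I:C-then-LPS replicate (0.78, adjusted p = 0.0512, and 0.70, adjusted p = 0.0727), and Aptx at 0.43 ± 0.15, lost in 5 settings. The NAD genes then gave 1 higher and 3 lower (median 0.15), and the ADP-ribose removal genes 2 higher and 2 lower (median 0.02), both near the shares of all entries. Of 10 tested genes of cell division, 9 were lower at 2 h, with a median of -3.72, where 28.5% of all entries were called lower, and 8 at 6 h, with a median of -2.19, where 25.9% were. At 2 h Birc5 changed by -5.09 ± 0.30, Ccnb2 by -4.68 ± 0.18, Cdk1 by -4.27 ± 0.24 and Top2a by -4.03 ± 0.20. Beside the fall of the Parp1 entry in the other comparisons, 6 of the 10 were lower with LPS after PBS at 6 h (median -1.20; 20.6% of all entries) and all 10 with Poly I:C before PBS at 2 h (median -3.61; 22.4% of all entries) and at 6 h (median -3.66; 16.1% of all entries). All 10 were also lower at 6 h than at 2 h of LPS after PBS (median -1.74, against 26% of all entries). With LPS after Poly I:C at 6 h the Parp1 entry changed by -0.81. There 2 of the 10 were lower and 1 higher (median -0.12), against 22.2% and 21.7% of all entries. From 2 h to 6 h of PBS after Poly I:C the Parp1 entry rose by 0.66. There 1 of the 10 was lower and 0 higher (median -0.25), against 18% and 12.3% of all entries. The part of the division genes in the change of the Parp1 entry was not tested. Among genes of interferon signalling, Poly I:C before LPS changed the transcription factor gene Stat2 by 3.26 ± 0.19 at 2 h and -0.52 ± 0.19 at 6 h. The values at 2 h and 6 h were 5.50 ± 0.25 and 0.59 ± 0.25 for the interferon regulatory factor gene Irf7, and 2.37 ± 0.11 and 0.02 ± 0.11 for the receptor kinase gene Tyk2, of which the 6 h values of Irf7 and Tyk2 did not pass and that of Stat2 (adjusted p = 0.046) was lost in 8 of the settings tried.

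The genes nearest in pattern were sought among 6929 to 6931 candidates with a mean of at least 5 FPKM, by the root mean square difference of centred group means over the 8 groups. Nearest to the mean profile of Parp9 and Dtx3l were Znfx1 (0.20 log2), Samd9l (0.21), Psme2 (0.22), Trim21 (0.25) and Irgm1 (0.28). For Parp14 they were Daxx (0.15), Ifih1 (0.34), Irgm1 (0.37), Rtp4 (0.38) and Dtx3l itself (0.39). Parp12 was closest to Tor3a (0.08), Casp1 (0.15), Trafd1 (0.24), Samd9l (0.24) and Ifi35 (0.25). Around the Parp1 entry lay Rpa1 (0.16), Rfc4 (0.19), Cbx3 (0.21), Kdm2b (0.21) and Coprs (0.23), and around Parp8 Atp10a (0.26), Zeb1 (0.28), Cers6 (0.34), Etnk1 (0.36) and Pcgf5 (0.37). Between members, the Parp1 entry differed from Parp11 by 2.67, from Parp14 by 2.47 and from Parp9 by 2.30 log2, which describes these group means and is no test.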

How the data were processed

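RNA of 14 libraries of mouse bone marrow-derived macrophages was sequenced as paired reads of 76 bases after stranded poly(A) selection, per the labels' protocols. The deposited values are FPKM made by the authors with Cuffnorm. The submitters' processing notes name TopHat2, Cufflinks and Cuffnorm and the build mm9, with versions not given in the sources used here. Entry coordinates matched GRCm38 instead: 33796 of 33853 entries naming 1 GENCODE M21 gene overlapped that gene, so annotation is given on GRCm38. The files hold no counts, so sequencing depth cannot be stated.

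The deposited FPKM were turned into log2(FPKM + 1) and fitted with limma 3.58.1 (R 4.3.3, eBayes with trend), with 1 mean per group over all 8 groups, for entries with a gene name that reached 1 FPKM in 2 or more libraries (11977 tested; 1859 entries without a name were left out). In 14 comparisons, p-values were adjusted by Benjamini-Hochberg over all tested entries, with a threshold of 0.05. On simulated data for the 2 h comparison of Poly I:C with PBS ahead of LPS, run on 11977 entries with 200 changed, 84% of changes of 1 log2 unit and 99% of those of 2 were recovered, and 7.58% of calls were false. For LPS after PBS at 2 h, with a single control library, the same test on 11977 entries recovered 66% and 100%, with 2.92% of calls false. Noise in both simulations was normal, with the variances that limma fitted, also for the single control library, so they cannot check those assumptions. Far fewer entries were changed than were called in the real data. For Poly I:C before LPS at 2 h, 32.6% of entries were called higher and 28.5% lower. The rates of recovery and of false calls need not carry over. Both simulations placed their changes in more strongly expressed entries only. The recovery rates therefore need not hold for genes as low as Parp11 and Parp8 in PBS-then-LPS and PBS-then-PBS libraries at 2 h.

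All members are named, and of the other lists the tested genes that passed in the 2 h comparison of Poly I:C before LPS, up to 4 a list; 1 gene of interferon signalling, and the counts of its list, are not reported here. Members and lists were chosen with earlier results of these data known. Alternatives were the pseudocount, the filter, scaling, the trend, fits of 1 time alone, a joint PBS-then-PBS control, a replicate block and leaving out each library.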

Additional observations from a re-analysis of the deposited data

Results flagged for a closer look

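These values stand out because the effect of one stimulus differed with the other stimulus or with time, each difference having been tested with limma. The LPS change on the log2 scale at 2 h was smaller after Poly I:C than after PBS for Dtx3l (-1.97) and Parp14 (-1.61), though not in FPKM for Parp14. At 6 h it was smaller for Parp12 (-3.11), Parp11 (-3.11), Parp14 (-3.00), Dtx3l (-2.65), Parp9 (-1.87) and the Parp10 and Plec entry (-1.43), and the fall of the Parp1 entry was smaller by 1.14 on the log2 scale. The change made by Poly I:C before LPS was lower at 6 h than at 2 h for Parp11 (-4.82), Parp12 (-3.68), Parp8 (-2.74), Parp14 (-2.70), Parp9 (-2.42), Dtx3l (-1.96), the Parp10 and Plec entry (-1.38) and Parp2 (-0.46), and higher for the Parp1 entry (1.56). The interactions rest on 1 PBS-then-PBS library at each time. No group holds enough libraries for a test of a single library against its group.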

How the results depend on the processing

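Of 1350 values of members under other settings, 1308 kept direction and side of the threshold, 22 lost a call, 7 gained one and 13 turned direction. With the libraries of 1 time alone, 3 instead of 5 members passed for LPS after PBS at 2 h. Leaving out single libraries gave 2 to 4 members for the interaction at 2 h. No turned value had been called. With the PBS-then-PBS libraries of both times joined, Parp2 turned to -0.13 at 2 h and 0.15 at 6 h for LPS after PBS, and in the interaction at 2 h Parp1 turned to 0.065 and Parp2 to 0.074. The other turned values came from leaving out single libraries. Over these, LPS after PBS at 2 h ranged from -0.24 to 0.197 for Parp11 and from -0.035 to 0.148 for Parp2, and the interaction at 2 h from -0.052 to 0.385 for Parp11. For LPS after Poly I:C at 2 h, Parp11 ranged from -0.019 to 0.309. For 6 h against 2 h, Parp2 ranged from -0.069 to 0.082 after Poly I:C then PBS, with the other turned value at -0.013, and Dtx3l from -0.131 to 0.016 after Poly I:C then LPS. For Poly I:C before LPS at 6 h, the ranges were -0.046 to 0.136 for Parp9, -0.24 to 0.0081 for Parp1, -0.115 to 0.154 for Tyk2 and -0.141 to 0.011 for Polb. The cause was not tested.

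Replicate numbers showed no clear pairing of the libraries: deviations from group means correlated at -0.19 to 0.08 over 15 pairs of groups. With 2 libraries in a group this cannot exclude pairing or a shared batch. With the replicate block, the time difference of Parp2 (-0.46) lost its call (adjusted p = 0.0539), as did Aptx (0.43) and Stat2 (-0.52) at 6 h. Pairs of libraries and single controls limit precision, and depth is unknown.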
